A study of Homo sapiens with 36 samples.

Results

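Serine enters the lipids of a cell along 2 routes, and the 10 genes described here encode enzymes of both of them. They were taken by name: SPTLC1, SPTLC2 and SPTSSA for serine palmitoyltransferase, KDSR for the reductase that follows it, CERS2, CERS5 and CERS6 for ceramide synthases, DEGS1 for the desaturase that yields ceramide, and PTDSS1 and PTDSS2 for the phosphatidylserine synthases. All 10 were found among the 57820 genes of the count table, and all 10 passed the filter on low counts in each of the 14 comparisons made.

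Sphingolipid synthesis starts in the endoplasmic reticulum, where serine palmitoyltransferase joins serine to a fatty acyl group. The product is reduced, acylated by a ceramide synthase and desaturated to ceramide, the precursor of sphingomyelin and of the glycosphingolipids. Phosphatidylserine is made by exchange of serine for the head group of phosphatidylcholine or phosphatidylethanolamine, and it is decarboxylated in mitochondria to phosphatidylethanolamine.

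RNA-seq was performed on A2780, an ovarian cancer cell line, in 36 libraries of 12 conditions with 3 libraries each. The wt cells were the platinum-sensitive parental cells. The cis cells were isogenic resistant cells that had been exposed chronically to cisplatin, a DNA-damaging platinum drug. The cis SSP cells had grown out of cis cells under serine/glycine deprivation, with serine synthesis regained. The earlier cisplatin exposure is thus shared by cis and cis SSP cells. The study reported that cis SSP cells had in part become sensitive to platinum again. Each line was kept in complete medium or in medium without serine and glycine (-SG), and was left untreated or given carboplatin (carbo), a drug related to cisplatin. For deprivation experiments the study's methods name homemade RPMI with dialyzed serum, with or without these amino acids. Whether the complete medium of the RNA-seq was of this kind is not stated. If it was not, effects of deprivation and of the medium base or serum cannot be told apart. The labels give the carboplatin dose as 6 M, where other assays of these cells used 6 µM. The 3 libraries of a condition were described as technical replicates, so p-values here measure the spread between libraries and do not cover that between independent cultures. In bulk RNA, a change in the cells present and a change in RNA per cell cannot be told apart.

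Total counts on genes ranged from 13074937 to 20441582 per library. Expression is given as CPM, the counts of a gene scaled to a common library total with TMM factors, either library by library or as mean ± SD (n = 3). PHGDH, the serine synthesis enzyme that differs between these lines, had means of 471, 151 and 319 CPM in wt, cis and cis SSP cells in complete medium. Of 8 markers listed as ovarian and epithelial, PAX8, CDH1 and MUC16 stayed at or under 0.631 CPM in all 36 libraries and EPCAM at or under 2.31 CPM. VIM, on the same list but a mesenchymal marker, lay between 1522 and 4743 CPM. WT1 reached 1.38 CPM and KRT8 6.55 CPM, and KRT18, which reached 42.2 CPM, had means of 0.612, 17.1 and 10.6 CPM in wt, cis and cis SSP cells. The leukocyte markers PTPRC, CD3E and CD68 and the endothelial marker VWF were at most at 0.350 CPM. Of the fibroblast markers, COL1A2 averaged 369 CPM in wt against 0.0620 in cis cells and COL1A1 at 162 and 4.02 CPM, while DCN was at 0.490 CPM in wt, 0.628 CPM in cis and 24.7 CPM in cis SSP cells. The part of these markers in the results was not tested. Libraries 25 (cis SSP replicate 1) and 32 (cis SSP -SG replicate 2) stood apart from the other libraries of their conditions, with log2 deviations whose SD over 8778 genes was 0.646 and 0.665. In the 30 libraries outside these 2 conditions the SD was at most 0.251, the value of library 11 (wt -SG carbo replicate 2). The deviations of these 3 libraries ran with transcript length (Spearman rho over genes of -0.769, -0.760 and -0.747, a description). Many results that use these libraries, but not all, are given with and without them.

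Positions of the genes are those of GENCODE v44 as mapped to GRCh37, the build of the counts. SPTLC1 lies on chromosome 9 from 94762369 to 94877695, SPTLC2 on chromosome 14 from 77972340 to 78082980 and SPTSSA on the same chromosome from 34901994 to 34931446. KDSR lies on chromosome 18 from 60994959 to 61034461, and DEGS1 on chromosome 1 from 224363458 to 224381143. Of the ceramide synthase genes, CERS2 lies on chromosome 1 from 150933059 to 150947479, CERS5 on chromosome 12 from 50523072 to 50561316 and CERS6 on chromosome 2 from 169312759 to 169631644. PTDSS2 lies on chromosome 11 from 448268 to 491399. In this annotation 948 bases of CERS2 exons overlap exons of SETDB1 on the opposite strand, and SETDB1 held 36.2% as many counts as CERS2, so CERS2 is the least certain of the 10 where counting did not separate strands. The pseudogenes named after SPTLC1 held at most 4 counts each over the 36 libraries.

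Of the sphingolipid genes among the 10, SPTLC2 had the largest difference between cis and wt cells. KDSR and SPTSSA had the largest ones between media in cis cells. For this reason promoter sequences are shown for SPTLC2, SPTSSA and KDSR. They are the 250 bases before the gene start on the gene's own strand, 5′ to 3′, from the RefSeq promoter table of GRCh38.p14, and CCAAT or its reverse complement is in capitals. The SPTLC2 promoter is at chr14:77616638-77616887, that of SPTSSA at chr14:34462241-34462490 and that of KDSR at chr18:63367207-63367456, all 3 on the minus strand.
SPTLC2: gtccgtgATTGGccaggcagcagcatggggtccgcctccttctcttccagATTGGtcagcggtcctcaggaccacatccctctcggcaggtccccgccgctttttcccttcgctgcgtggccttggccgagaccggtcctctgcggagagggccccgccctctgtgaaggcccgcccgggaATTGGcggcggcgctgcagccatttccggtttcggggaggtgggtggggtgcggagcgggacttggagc
SPTSSA: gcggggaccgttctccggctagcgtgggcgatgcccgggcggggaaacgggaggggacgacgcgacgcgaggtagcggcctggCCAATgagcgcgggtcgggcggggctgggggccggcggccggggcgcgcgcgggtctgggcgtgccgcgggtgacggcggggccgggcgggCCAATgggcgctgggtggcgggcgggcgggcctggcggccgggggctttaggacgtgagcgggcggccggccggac
KDSR: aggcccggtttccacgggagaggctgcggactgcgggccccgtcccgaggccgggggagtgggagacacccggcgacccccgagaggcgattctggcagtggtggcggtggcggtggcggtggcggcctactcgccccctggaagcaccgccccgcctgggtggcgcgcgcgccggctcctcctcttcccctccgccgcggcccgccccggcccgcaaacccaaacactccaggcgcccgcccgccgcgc
The SPTLC2 sequence holds 3 CCAAT boxes on the reverse strand, with first bases at -243, -200 and -69 from the start site, and the SPTSSA sequence holds 2 on the forward strand, at -167 and -76. CERS6 holds 1 at -83, and the other matched genes hold none. CCAAT was searched on both strands, and 11240 of the 35116 promoters of this length in the table hold it. CACGTG, an E-box, occurs in 6.34% of them and, among these genes, in PTDSS2 with 2 copies at -230 and -195 from its first start site. TGATGNAA, the core of the amino acid response element bound by ATF4, occurs in 3.14% of all promoters and in none of the matched ones. Promoters of 8 of the 10 genes were matched, and CERS2 and PTDSS1 are named only. These letters are a description of the windows and not a measure of binding.

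Per kilobase of canonical transcript, CERS2 was the most abundant of the 10 transcripts, with a median over 36 libraries of 103 CPM per kb, followed by DEGS1 at 79.4 CPM per kb. PTDSS1 (33.4), PTDSS2 (31.04) and SPTLC1 (28.02 CPM per kb) came next, CERS5 was at 18.6, KDSR at 14.7, SPTSSA at 13.99 and CERS6 at 13.4 CPM per kb. SPTLC2 was lowest at 8.73 CPM per kb, so the transcripts of the catalytic pair SPTLC1 and SPTLC2 were not at equal levels. Per kilobase of all annotated exons SPTLC2 was again lowest, at 5.71 CPM per kb, and DEGS1 (66.0) stood above CERS2 (51.5 CPM per kb). The order of the genes between these also depends on the length used.

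The spread of each gene over the 12 conditions differed widely. PTDSS1 had the largest range of condition means, 2.49-fold from 120.5 CPM in wt carbo to 299.4 CPM in cis cells. SPTLC2 followed with 2.28-fold, KDSR with 2.18-fold, CERS6 with 2.10-fold and SPTSSA with 1.94-fold. The range of CERS6 rested on libraries 25 and 32, as shown for that gene. DEGS1 varied least, 1.23-fold between 144 and 177 CPM, and in the order of its 12 condition means 10 of the 11 neighbouring pairs overlapped.

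**Figure D1:**
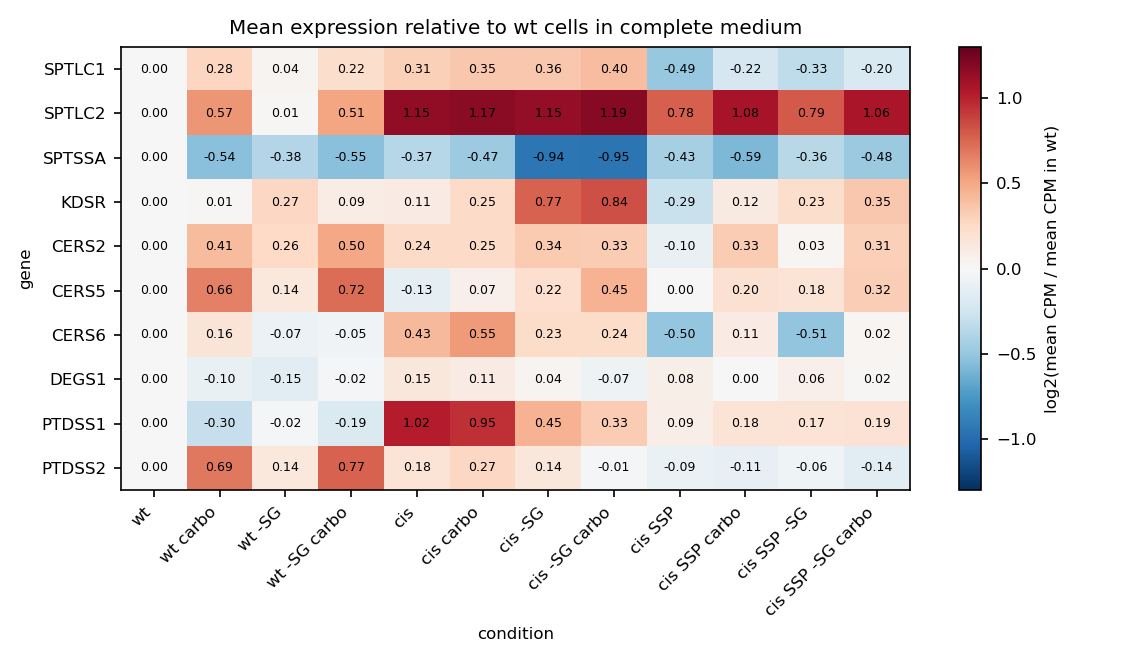
Mean expression of the 10 genes (rows) in the 12 conditions (columns), as log2 of the mean CPM of 3 libraries over that of wt cells in complete medium, with red above and blue below wt. SPTLC2 is high in all 8 cis and cis SSP conditions (0.78 to 1.19), PTDSS1 is high in cis cells in complete medium (1.02 and 0.95 with carbo), and SPTSSA is below wt in all other conditions (-0.36 to -0.95).

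The first question was how the resistant line differed from its parent. Between cis and wt cells in complete medium, all 10 genes passed the threshold of an edgeR adjusted p of 0.05, 8 higher and 2 lower in cis cells. Of all 14431 genes tested 78.5% passed, so most genes differed between these lines at this precision. In 1 fit over the 36 libraries SPTLC1, SPTLC2, SPTSSA, DEGS1 and PTDSS1 passed, where 9515 of all 16677 genes tested passed. SPTLC2 and PTDSS1 had the largest differences, at 1.13 and 0.998 on the log2 scale, and the other 8 lay between -0.38 and 0.41. The median log2 difference of the 10 was 0.19 against -0.00407 over all genes, and the median of its absolute value was 0.26 against 0.44. The call of KDSR (0.09, edgeR adjusted p = 0.0488) was lost under 9 of 12 alternatives. It was lost without wt replicate 2 (adjusted p = 0.337), wt replicate 3 (0.0715), cis replicate 1 (0.196) or cis replicate 3 (0.136), and its libraries overlapped between the lines.

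Between cis SSP and cis cells, SPTLC1, KDSR and PTDSS1 passed, all 3 lower in cis SSP cells, and 29.1% of all genes passed. The median log2 difference of the 10 was -0.37 against 0.01 over all genes. Without library 25, 9 of the 10 passed, all lower in cis SSP cells, where 65.4% of all genes passed. CERS5 did not pass in either case (0.11 with and 0.00189 without library 25). The comparison shares its cis libraries with that of cis and wt cells.

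The second question was the response to serine/glycine deprivation. In wt cells 6 of the 10 passed, 4 higher and 2 lower without serine and glycine (49.2% of all genes), and their absolute log2 differences had a median of 0.14 over the 10 genes against 0.19 over all genes. In cis cells 7 passed, 4 higher and 3 lower (75.0% of all genes), with a median absolute difference of 0.14 against 0.39 over all genes. KDSR, CERS2 and CERS5 were higher and SPTSSA was lower in -SG medium in both lines. For cis SSP cells none passed by edgeR, where 1 had an unadjusted p under 0.05 and DESeq2 called 1, and 0.0218% of all genes passed. Without libraries 25 and 32, the 5 genes SPTLC1, KDSR, CERS2, CERS5 and PTDSS1 passed there, all higher in -SG medium, with 35.9% of all genes.

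The third question was the response to carboplatin. In wt cells in complete medium 9 of the 10 passed, 6 higher and 3 lower, with 77.8% of all genes. In cis cells 3 passed, KDSR, CERS5 and CERS6, all higher, with 20.1% of all genes. In cis SSP cells none passed by edgeR, where 2 had an unadjusted p under 0.05 and DESeq2 called 1, and 2.72% of all genes passed. Without library 25, 7 passed there, all higher with carboplatin, where 41.2% of all genes passed.

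In -SG medium, carboplatin moved 7 of the 10 genes in wt cells, 5 higher and 2 lower, with 68.9% of all genes. All 10 passed without library 11, 7 higher and 3 lower, where 73.3% of all genes passed. In cis cells 3 passed, CERS5 higher and PTDSS1 and PTDSS2 lower, with 22.5% of all genes. The calls of PTDSS1 and PTDSS2 were lost when cis -SG replicate 2 or 3 or cis -SG carbo replicate 2 or 3 was left out, with adjusted p-values from 0.0588 to 0.162. Among cis SSP libraries none passed, none had an unadjusted p under 0.05 and DESeq2 called none, with 1.47% of all genes. Without library 32, 6 passed there, all higher with carboplatin, where 41.1% of all genes passed.

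Differences between responses were tested by an interaction term over 4 conditions. The carboplatin response differed between cis and wt cells for 8 of the 10 genes, with 57.6% of all genes. The deprivation response differed between cis and wt cells for 5, with 54.0% of all genes, and between cis SSP and cis cells for SPTSSA and PTDSS1, with 17.1% of all genes. Without libraries 25 and 32 the last number was 5, adding KDSR, CERS5 and CERS6, where 55.4% of all genes passed. Some calls of small differences were lost when any 1 of several libraries was left out. That of the carboplatin response of KDSR (0.15, edgeR adjusted p = 0.0223) was lost without wt replicate 1, wt carbo replicate 1 or 2, cis replicate 2 or cis carbo replicate 1 or 3 (adjusted p from 0.0651 to 0.19). That of the deprivation response of CERS2 between cis and wt cells (-0.09, edgeR adjusted p = 0.0441) was lost without wt -SG replicate 2, cis replicate 3 or cis -SG replicate 1 or 3 (adjusted p from 0.052 to 0.0793). That of DEGS1 (0.11, edgeR adjusted p = 0.0379) was lost without any of wt replicates 1 and 2, wt -SG replicates 1 and 3, the cis replicates and cis -SG replicates 1 and 2 (adjusted p from 0.0532 to 0.26).

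**Figure D2:**
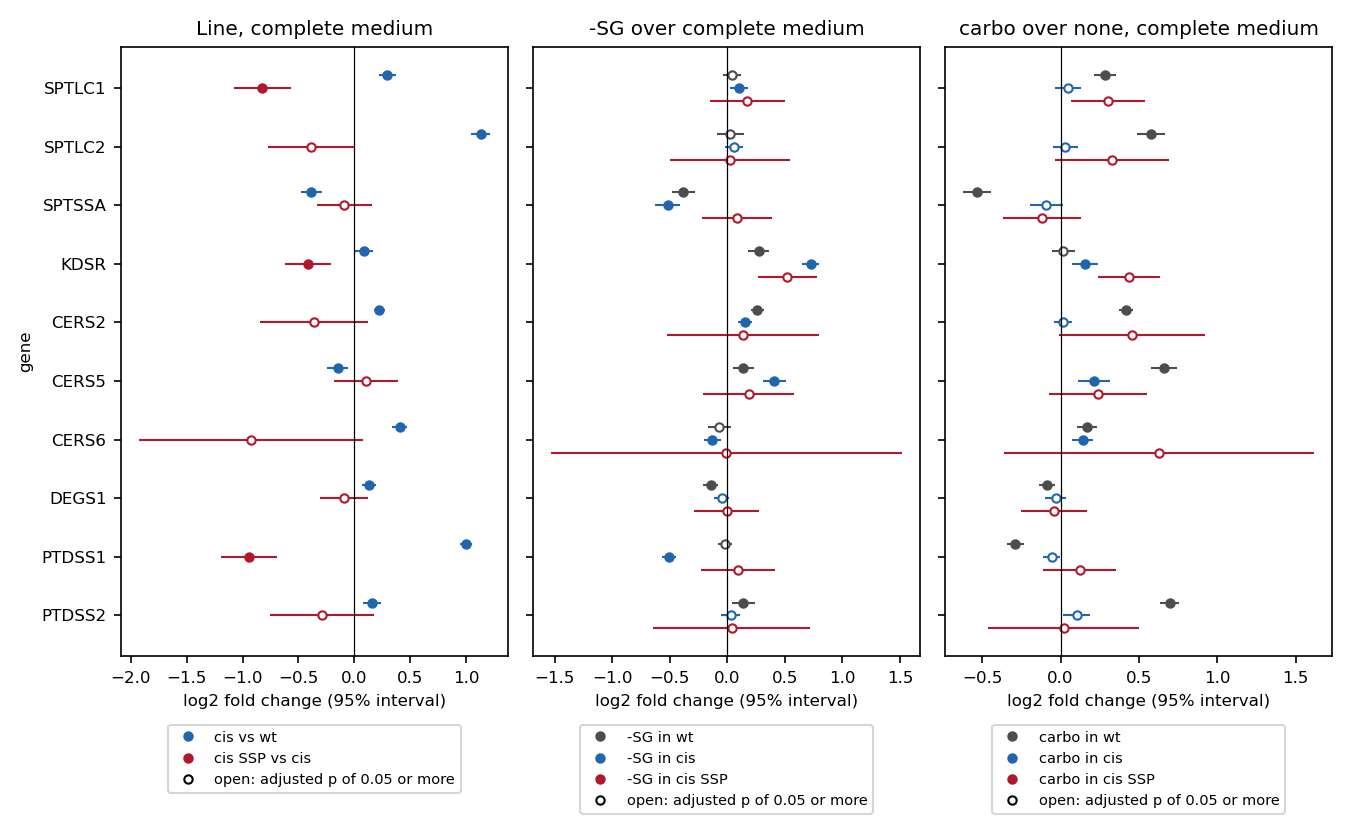
Log2 fold changes of the 10 genes with 95% intervals from edgeR, for the lines in complete medium (left), -SG over complete medium (middle) and carboplatin over none (right), with filled points for an adjusted p under 0.05 and open points otherwise. SPTLC2 and PTDSS1 lie at 1.13 and 0.998 in cis over wt, KDSR is right of 0 in -SG medium in all 3 lines, and the intervals of cis SSP cells are the widest, with that of CERS6 from -1.93 to 0.08 against cis cells.

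SPTLC2 encodes the catalytic subunit of serine palmitoyltransferase that binds the pyridoxal phosphate cofactor, and it separated the lines more than any other gene of the sphingolipid route. Its libraries in wt cells were at 35.9, 37.05 and 35.96 CPM, and those in cis cells were at 82.8, 78.7 and 80.4 CPM. Every cis library was above every wt library. The cis/wt log2 fold change was 1.13 (SE 0.0427, 2.19-fold, edgeR adjusted p = 3.54e-27). SPTLC2 in cis SSP cells was at 50.3 CPM in library 25 and at 71.2 and 65.3 CPM in the others, all between wt and cis cells. Its cis SSP/cis log2 value of -0.39 (95% interval -0.77 to -0.00139) did not pass (edgeR adjusted p = 0.119), and without library 25 it was -0.23 (adjusted p = 6.64e-05).

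Deprivation left SPTLC2 near its level in each line. It was at 38.5, 38.6 and 32.998 CPM in wt -SG and at 82.8, 81.5 and 76.7 CPM in cis -SG libraries, overlapping those in complete medium in both lines. The log2 values were 0.02 in wt (95% interval -0.09 to 0.14) and 0.06 in cis cells (-0.02 to 0.14). In cis SSP -SG cells it was at 68.0 and 69.0 CPM and at 51.7 CPM in library 32. The SPTLC2 values with carboplatin, in contrast, moved in wt cells and not detectably in cis cells. It was at 53.9, 56.3 and 51.7 CPM in wt carbo libraries, above all untreated wt libraries and below all cis libraries, a log2 fold change of 0.58 (SE 0.0454, edgeR adjusted p = 3.08e-33). In cis carbo libraries it was at 80.1, 84.5 and 80.8 CPM, a log2 value of 0.03 (95% interval -0.05 to 0.11). The responses differed by -0.54 (SE 0.0591, edgeR adjusted p = 6.7e-12). In wt -SG medium SPTLC2 was at 53.7, 46.4 and 55.5 CPM with carboplatin, above all 3 untreated libraries, and the log2 fold change was 0.50 (edgeR adjusted p = 0.000861).

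SPTLC1 encodes the other subunit of the catalytic pair, which lacks the cofactor lysine. It did not move with SPTLC2 by the same amount. It was at 70.7 ± 1.93 CPM in wt, 88.0 ± 3.91 CPM in cis and 50.4 ± 3.17 CPM in cis SSP cells (SD, n = 3), and the libraries of the 3 lines did not overlap. The cis/wt log2 fold change was 0.29 (SE 0.0384, edgeR adjusted p = 3.33e-09) and the cis SSP/cis one was -0.82 (SE 0.107, edgeR adjusted p = 0.0025), so SPTLC1 in cis SSP cells lay under its wt level as well. The cis SSP/cis call held under all 12 alternatives, from -0.87 to -0.74. Carboplatin raised SPTLC1 in wt cells by 0.29 on the log2 scale (edgeR adjusted p = 3.78e-15), against 0.05 (95% interval -0.03 to 0.13) in cis cells, and the responses differed by -0.23 (edgeR adjusted p = 0.000162). The small call of deprivation in cis cells (0.10, adjusted p = 0.0159) was lost without cis replicate 2 (adjusted p = 0.213), cis -SG replicate 2 (0.097) or cis -SG replicate 3 (0.0671).

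SPTSSA encodes the small subunit that activates the catalytic pair, and it was highest in untreated wt cells in complete medium. It was there at 54.1, 52.7 and 49.5 CPM, above all libraries of the other conditions. In cis libraries it was at 39.5, 41.9 and 39.9 CPM, and the cis/wt log2 fold change was -0.38 (SE 0.0472, edgeR adjusted p = 8.09e-10). Cis SSP libraries were at 43.1 CPM (library 25), 34.99 and 37.6 CPM, overlapping cis cells, with a log2 value of -0.09 (95% interval -0.33 to 0.15). Without serine and glycine SPTSSA fell in wt cells to 38.4, 40.2 and 41.3 CPM, by 0.38 on the log2 scale (SE 0.0475, edgeR adjusted p = 1.08e-06). It fell in cis cells to 27.5, 27.7 and 26.01 CPM, by 0.52 on the log2 scale (SE 0.0542, edgeR adjusted p = 8.88e-12). The difference between these responses was -0.12 (95% interval -0.26 to 0.03) and did not pass (edgeR adjusted p = 0.161). In cis SSP -SG cells SPTSSA was at 37.6 and 39.8 CPM and at 44.4 CPM in library 32, overlapping complete medium. Its response there differed from that of cis cells by 0.61 (SE 0.136, edgeR adjusted p = 0.0112), and by 0.61 also without libraries 25 and 32 (adjusted p = 1.48e-08).

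With carboplatin SPTSSA fell in wt cells to 35.4, 36.03 and 36.1 CPM, by 0.53 on the log2 scale (SE 0.046, edgeR adjusted p = 2.8e-28). Cis carbo libraries were at 38.0, 36.6 and 38.4 CPM, just under the 3 cis libraries without the drug, with a log2 value of -0.09 (95% interval -0.20 to 0.01, edgeR adjusted p = 0.234). The carboplatin responses differed by 0.45 (SE 0.0683, edgeR adjusted p = 7.5e-08). In wt cells in -SG medium, which already had less SPTSSA, the log2 value with carboplatin was -0.16 (edgeR adjusted p = 0.0667), at 34.8, 38.8 and 33.5 CPM, and it was -0.22 without library 11 (adjusted p = 0.00383). In cis -SG carbo libraries it was at 27.1, 25.5 and 28.2 CPM, as in cis -SG cells (log2 value 0.000743, 95% interval -0.13 to 0.13). In cis SSP cells SPTSSA was at 35.5, 34.3 and 34.3 CPM with carboplatin, and at 36.5, 36.96 and 38.7 CPM with carboplatin in -SG medium. The 3 subunits of serine palmitoyltransferase thus moved in different directions with carboplatin in wt cells, SPTLC1 and SPTLC2 higher and SPTSSA lower.

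KDSR encodes 3-ketodihydrosphingosine reductase, which reduces the product of serine palmitoyltransferase to dihydrosphingosine. It was the gene of the 10 with the largest increase without serine and glycine. Its libraries in cis cells were at 74.2, 70.2 and 73.8 CPM in complete and at 116, 116 and 113 CPM in -SG medium. The lowest deprived library was above the highest one in complete medium, with a log2 fold change of 0.72 (SE 0.037, 1.65-fold, edgeR adjusted p = 2.23e-22). In wt cells KDSR was at 70.9, 63.6 and 67.9 CPM in complete and at 79.7, 84.9 and 79.5 CPM in -SG medium, without overlap. The increase in wt cells was 0.27 (SE 0.0427, edgeR adjusted p = 2.14e-05), and the cis response was larger by 0.47 (SE 0.0556, edgeR adjusted p = 3.95e-09). The KDSR libraries of cis SSP cells were at 55.7, 54.4 and 55.8 CPM in complete and at 80.0, 79.7 and 77.1 CPM in -SG medium, again without overlap. This log2 value of 0.52 (95% interval 0.27 to 0.78) did not pass (edgeR adjusted p = 0.348). Without libraries 25 and 32 it was 0.52 (adjusted p = 1.82e-09), and it also passed by DESeq2 on all libraries. KDSR itself deviated by 0.01 and 0.02 on the log2 scale in libraries 25 and 32.

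KDSR was the lowest in cis SSP cells in complete medium of all 12 conditions, without overlap with the next condition. Its cis SSP/cis log2 fold change was -0.41 (SE 0.0875, edgeR adjusted p = 0.0149). The call was lost when any cis library was left out (adjusted p of 0.0915, 0.0694 and 0.0858) and strengthened without library 25 (-0.39, adjusted p = 1.04e-08). With carboplatin KDSR was at 67.9, 68.7 and 67.3 CPM in wt, 83.3, 77.1 and 80.1 CPM in cis and 73.0, 73.0 and 73.2 CPM in cis SSP cells. The wt libraries overlapped untreated ones, with a log2 value of 0.02 (95% interval -0.06 to 0.09). The cis libraries lay above untreated ones by 0.16 (SE 0.0406, edgeR adjusted p = 0.00644), a call lost without cis replicate 2 (adjusted p = 0.0528) or cis carbo replicate 1 (0.0559). The cis SSP value was 0.44 (95% interval 0.24 to 0.63, edgeR adjusted p = 0.0513), and it passed without library 25 (0.43, adjusted p = 6.54e-09). In -SG medium with carboplatin KDSR was at 73.9, 72.8 and 68.9 CPM in wt, 121, 116 and 125 CPM in cis and 86.3, 83.6 and 87.9 CPM in cis SSP cells. The wt value was the one that passed there (log2 fold change -0.17, edgeR adjusted p = 0.0189), and not without wt -SG replicate 2 (adjusted p = 0.0758) or wt -SG carbo replicate 3 (0.0778). The cis SSP value of 0.14 did not pass with all libraries, and without library 32 it was 0.15 (adjusted p = 0.00574), opposite in sign to that of wt cells.

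**Figure D3:**
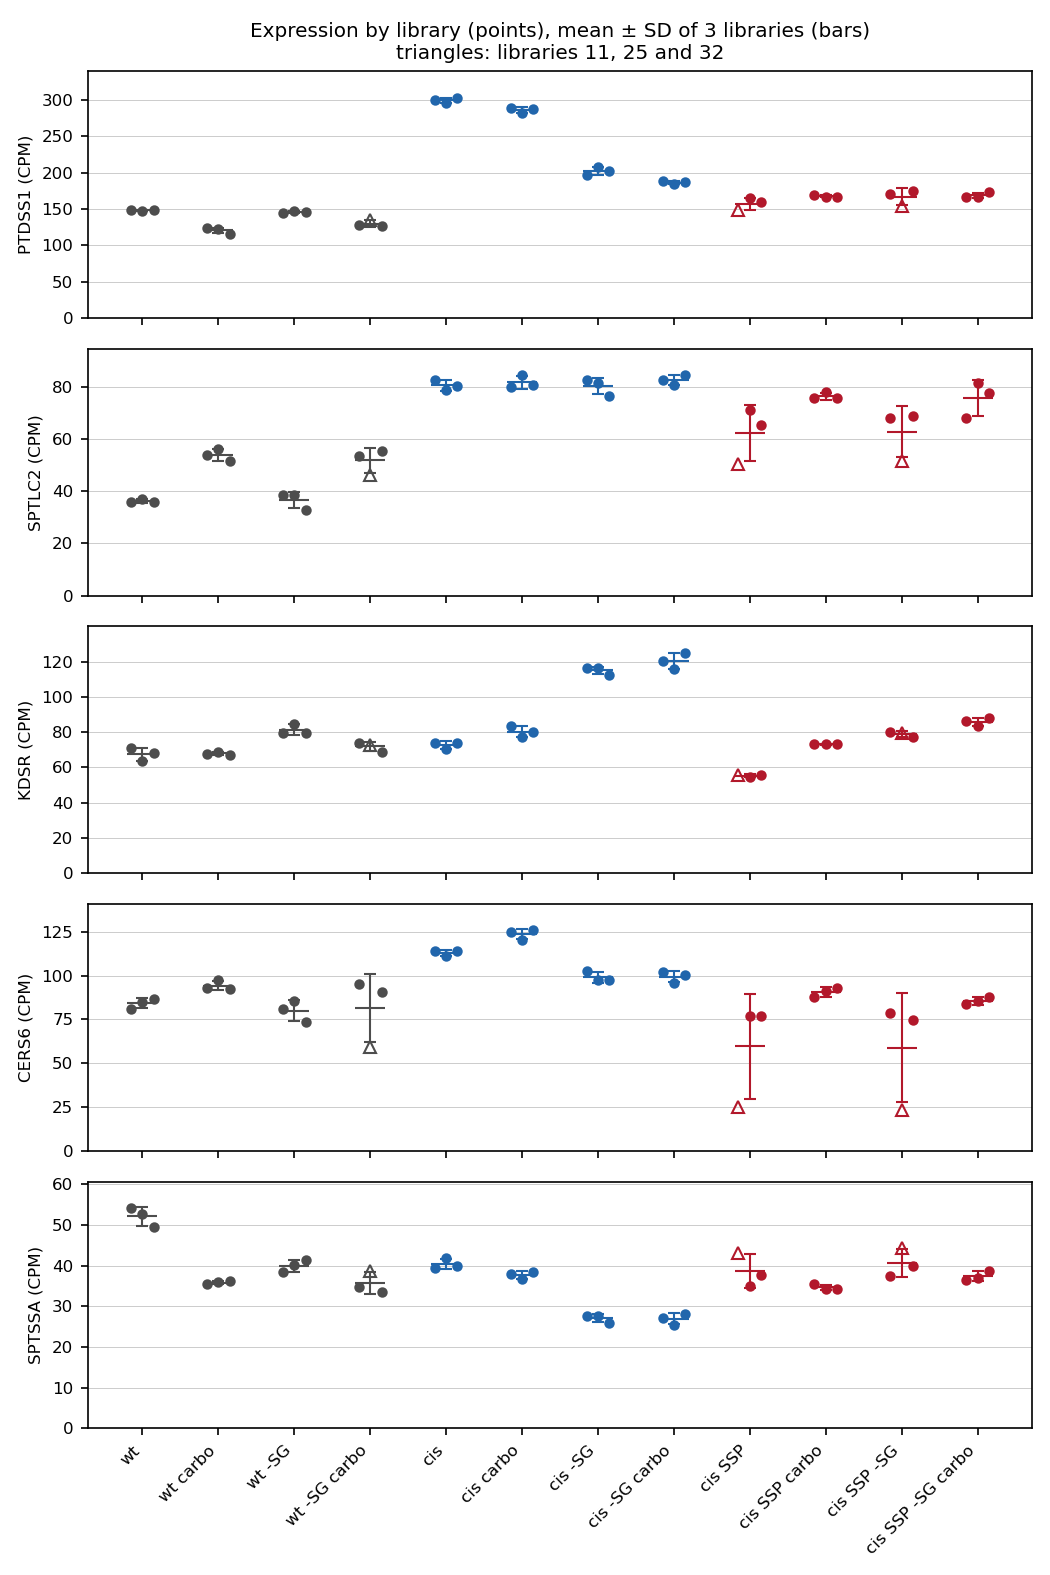
Expression in CPM of the 5 genes with the largest range over conditions, 1 panel each with the axis from 0, for the 12 conditions, with a point for each library and bars for the mean ± SD of 3 libraries. Open triangles are libraries 11, 25 and 32. PTDSS1 has a mean of 299.4 CPM in cis and 202 CPM in cis -SG cells, and the CERS6 values of libraries 25 and 32 lie at 25.1 and 23.2 CPM, far under the others of their conditions.

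CERS2, CERS5 and CERS6 encode ceramide synthases, which acylate dihydrosphingosine and differ in the acyl chains they prefer, very long for CERS2 and C16 for CERS5 and CERS6. By level per kilobase, CERS2 held 74.5% ± 0.306 of the family's sum over these 3 genes in wt and 75.9% ± 0.437 in cis cells (SD, n = 3), and its share was between 73.8% and 77.2% in all 12 condition means. CERS5 held 14.6% ± 0.410 in wt and 11.4% ± 0.240 in cis cells, and CERS6 held 10.9% ± 0.327 in wt and 12.6% ± 0.252 in cis cells. Which of these is the more abundant depends on the length used, since per kilobase of all exons the median of CERS6 (13.3 CPM per kb) was above that of CERS5 (6.90 CPM per kb). CERS5 was lower in cis than in wt cells (log2 fold change -0.15, edgeR adjusted p = 0.00509), and CERS6 was higher by 0.41 (SE 0.0341, edgeR adjusted p = 1.3e-14).

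CERS6 had a higher level in cis than in wt cells in each library. The wt libraries were at 81.0, 84.7 and 86.7 CPM, and the cis libraries at 114, 111 and 114 CPM. Of the cis SSP libraries, library 25 was at 25.1 CPM and the others at 76.7 and 77.0 CPM, and in cis SSP -SG cells at 78.6 and 74.8 CPM and at 23.2 CPM in library 32. The cis SSP/cis log2 value of -0.93 had an interval from -1.93 to 0.08 (edgeR adjusted p = 0.144). Without library 25 it was -0.54 (adjusted p = 5.61e-14). The condition means of cis SSP and cis SSP -SG cells, the lowest of the 12, rest on these 2 libraries. Library 11 had 59.0 CPM of CERS6, where wt -SG carbo replicates 1 and 3 had 95.02 and 90.5 CPM. The log2 value with carboplatin in wt -SG cells was 0.03 (edgeR adjusted p = 0.885), and 0.22 without library 11 (adjusted p = 0.00262). In the remaining conditions CERS6 was at 92.9, 97.4 and 92.6 CPM in wt carbo, 80.9, 85.4 and 73.5 CPM in wt -SG, 125, 120.3 and 126 CPM in cis carbo, 102, 97.2 and 97.3 CPM in cis -SG and 102, 95.8 and 100.3 CPM in cis -SG carbo libraries. Those of cis SSP carbo were at 87.8, 91.2 and 93.0 CPM and those of cis SSP -SG carbo at 83.5, 85.5 and 87.8 CPM, above all cis SSP libraries without the drug. Carboplatin raised CERS6 by 0.17 in wt (edgeR adjusted p = 6.59e-07) and by 0.14 in cis cells (edgeR adjusted p = 0.00233), and the responses differed by -0.02 (95% interval -0.11 to 0.07).

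In the fits of each comparison alone, CERS5 passed as higher with carboplatin in more conditions than any other of the 10 genes. It increased by 0.66 in wt (SE 0.0421, from 41.4 to 65.1 CPM, edgeR adjusted p = 8.22e-48), by 0.21 in cis (edgeR adjusted p = 0.00284), by 0.59 in wt -SG (edgeR adjusted p = 0.000103) and by 0.25 in cis -SG cells (edgeR adjusted p = 0.00408). Its cis SSP values were 0.24 in complete and 0.16 in -SG medium and did not pass, and they were 0.37 (adjusted p = 4.37e-06) without library 25 and 0.30 (adjusted p = 0.00024) without library 32. The wt and cis responses in complete medium differed by -0.44 (SE 0.0642, edgeR adjusted p = 2.58e-08). Deprivation raised CERS5 by 0.41 in cis cells (SE 0.049, edgeR adjusted p = 4.3e-10) and by 0.14 in wt cells (edgeR adjusted p = 0.0129), the latter not without wt replicate 2 (adjusted p = 0.0538). CERS6 was lower in -SG medium in cis cells (-0.13, edgeR adjusted p = 0.000931), a call lost in 1 fit over the 36 libraries (edgeR adjusted p = 0.601). In wt cells its value of -0.07 passed when wt -SG replicate 2 was left out (-0.12, adjusted p = 0.0257). The CERS5 responses differed by 0.28 (SE 0.064, edgeR adjusted p = 0.000258).

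CERS2 averaged 196 ± 1.98 CPM in wt against 232 ± 5.74 CPM in cis cells (SD, n = 3), a log2 fold change of 0.23 (edgeR adjusted p = 1.74e-10). Carboplatin raised it to 261 ± 3.64 CPM in wt cells (0.42, SE 0.023, edgeR adjusted p = 3.6e-61), and it was at 233 ± 5.65 CPM in cis carbo cells (0.01, 95% interval -0.04 to 0.07). The responses differed by -0.40 (edgeR adjusted p = 1.48e-14). The cis SSP mean of 183 ± 42.6 CPM held library 25 at its lowest value, 134 CPM. The cis SSP/cis log2 value was -0.36 (edgeR adjusted p = 0.227), and -0.15 without library 25 (adjusted p = 0.000119). Deprivation raised CERS2 in wt by 0.26 (edgeR adjusted p = 9.87e-08) and in cis cells by 0.15 (edgeR adjusted p = 1.12e-05). Both calls held under 11 of 12 alternatives, and the cis call was lost in 1 fit over the 36 libraries (edgeR adjusted p = 0.524).

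DEGS1 encodes dihydroceramide desaturase, which introduces the double bond of ceramide, and its range over the 12 conditions was the smallest. It was at 159.5 ± 6.41 CPM in wt, 177 ± 6.42 CPM in cis and 168 ± 6.17 CPM in cis SSP cells (SD, n = 3). DEGS1 was higher in cis than in wt cells by 0.13 (edgeR adjusted p = 0.000206), and in wt cells it was lower with carboplatin (-0.09, edgeR adjusted p = 0.00121) and without serine and glycine (-0.14, edgeR adjusted p = 0.0008). In the other 8 comparisons of pairs of conditions DEGS1 did not pass, with log2 values between -0.10 and 0.13. Left-out libraries brought it past the threshold between cis SSP and cis cells (-0.09, adjusted p = 0.0239 without library 25), in -SG cis cells (-0.09, adjusted p = 0.0244 without cis replicate 2), and with carboplatin in wt -SG (0.09, adjusted p = 0.0348 without library 11, and 0.16, adjusted p = 0.0488 without wt -SG carbo replicate 1) and cis -SG cells (-0.13, adjusted p = 0.00497 without cis -SG carbo replicate 1).

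PTDSS1 encodes phosphatidylserine synthase 1, which uses phosphatidylcholine, and it had the largest range of the 10 genes. It lies on chromosome 8 from 97274130 to 97349223 (GRCh37). It was at 148, 147 and 149 CPM in wt and at 299.7, 296 and 303 CPM in cis cells. The lowest cis library was far above the highest wt library. The cis/wt log2 fold change was 0.998 (SE 0.026, 1.997-fold, edgeR adjusted p = 1.69e-33). PTDSS1 in cis SSP cells was at 148 CPM in library 25 and at 164 and 159.6 CPM in the others, near the wt level and under every cis library. The cis SSP/cis log2 fold change was -0.94 (SE 0.104, edgeR adjusted p = 0.00132), and -0.87 without library 25 (adjusted p = 2.18e-22). These comparisons share the cis libraries, so that a high value in cis cells enters both.

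Deprivation lowered PTDSS1 in cis cells. It was at 197, 208 and 202 CPM in cis -SG libraries, without overlap with the 3 in complete medium, and fell by 0.51 on the log2 scale (SE 0.0295, edgeR adjusted p = 2.97e-20). In wt -SG libraries it was at 145, 147 and 146 CPM, overlapping those in complete medium (log2 value -0.02, 95% interval -0.08 to 0.04). The 2 responses differed by -0.47 (SE 0.0403, edgeR adjusted p = 1.29e-12). In cis SSP -SG libraries PTDSS1 was at 171, 154 (library 32) and 175 CPM, a log2 value of 0.09 (95% interval -0.23 to 0.42). The cis SSP response differed from that of cis cells by 0.61 (SE 0.116, edgeR adjusted p = 0.00515), and by 0.61 without libraries 25 and 32 (adjusted p = 1.37e-15). Even so, the cis -SG libraries were above all libraries of wt and cis SSP cells.

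With carboplatin PTDSS1 fell in wt cells to 123, 122 and 116 CPM, by 0.29 on the log2 scale (SE 0.0276, edgeR adjusted p = 8.62e-24). Cis carbo libraries were at 289, 281 and 287 CPM, under the 3 untreated ones, and the log2 value of -0.05 (95% interval -0.11 to -0.000931) did not pass (edgeR adjusted p = 0.152). The responses differed by 0.24 (edgeR adjusted p = 1.52e-07). In -SG medium with carboplatin PTDSS1 was at 128, 135 and 126 CPM in wt and at 189, 184 and 186 CPM in cis cells. The wt call (-0.17, edgeR adjusted p = 0.0152) was lost without wt -SG replicate 3 (adjusted p = 0.0633) or wt -SG carbo replicate 3 (0.0631). Cis SSP cells were at 169, 166 and 167 CPM with carboplatin and at 167, 166 and 173 CPM with carboplatin in -SG medium.

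PTDSS2 encodes phosphatidylserine synthase 2, which uses phosphatidylethanolamine, and it moved differently from PTDSS1. It averaged 72.0 ± 1.77 CPM in wt against 81.4 ± 3.26 CPM in cis cells (SD, n = 3), a log2 fold change of 0.16 (edgeR adjusted p = 0.000369). Carboplatin raised it in wt cells to 116 ± 0.784 CPM, by 0.70 (SE 0.0323, 1.62-fold, edgeR adjusted p = 6.7e-81), and in wt -SG cells by 0.63 (SE 0.0649, edgeR adjusted p = 1.85e-05). In cis cells its value was 0.10 (95% interval 0.02 to 0.19, edgeR adjusted p = 0.0793), and the responses differed by -0.59 (SE 0.0516, edgeR adjusted p = 3.31e-15). Its libraries 25 and 32 were at 91.7 and 93.8 CPM, against 55.4 to 58.2 CPM in the other 4 libraries of those conditions. Without library 25 the cis SSP/cis log2 fold change was -0.53 (adjusted p = 9.62e-12), against -0.29 (adjusted p = 0.298) with it. The value of PTDSS2 with carboplatin in cis SSP cells was 0.28 without library 25 (edgeR adjusted p = 9.35e-06), against 0.02 (adjusted p = 0.967) with it. The increase of PTDSS2 in wt cells in -SG medium (0.14, adjusted p = 0.0242) was lost without wt replicate 1 (adjusted p = 0.104), wt replicate 3 (0.0708) or wt -SG replicate 3 (0.131).

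By level per kilobase of canonical transcript, PTDSS1 made up 50.3% ± 0.763 of the sum of both synthases in wt, 33.8% ± 0.817 in wt carbo, 64.4% ± 1.17 in cis and 55.6% ± 0.938 in cis -SG cells (SD, n = 3). The libraries of these conditions did not overlap in this share. In cis SSP cells it was 54.0% ± 8.36, with library 25 at 44.4%. Shares depend on the transcript lengths used. No test was made of them.

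**Figure D4:**
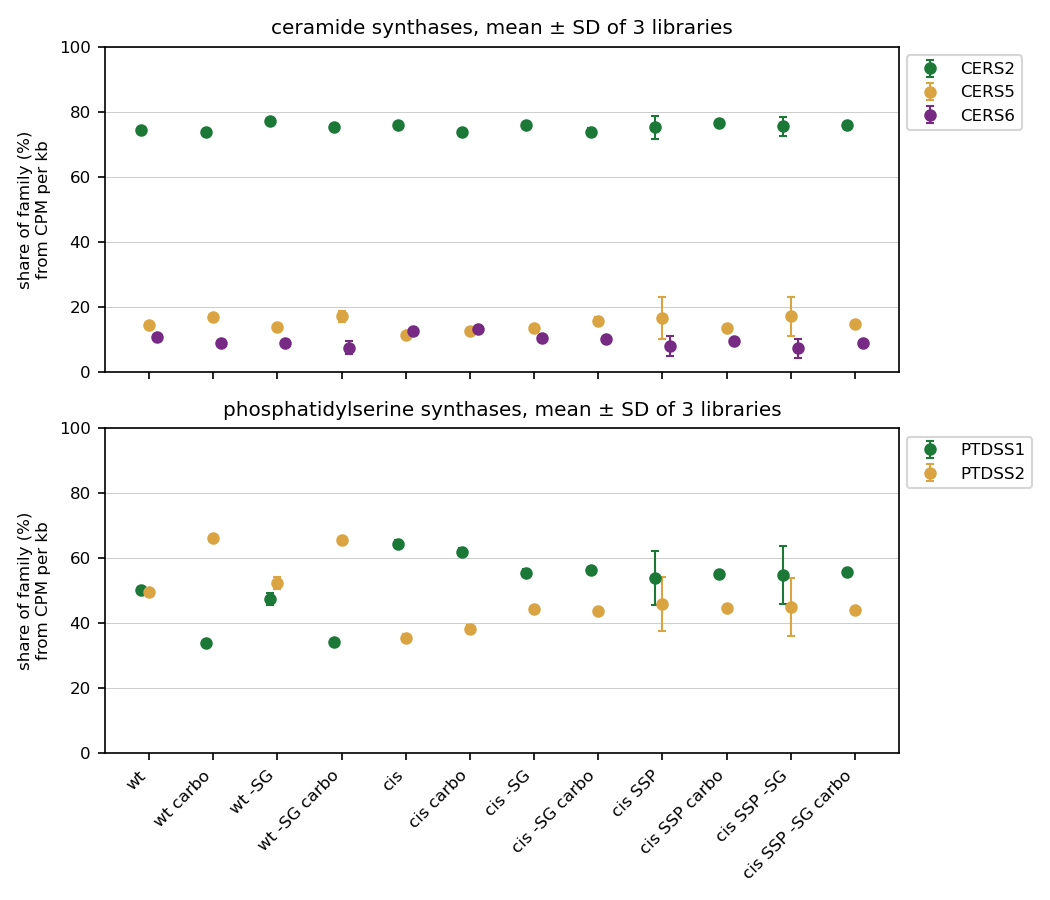
Share of each gene in the summed CPM per kb of its family (percent, axis from 0 to 100), for the 3 ceramide synthase genes (top) and the phosphatidylserine synthase genes (bottom) in the 12 conditions, as mean ± SD of 3 libraries. CERS2 holds from 73.8% to 77.2% of the sum over these 3 genes in every condition. That sum leaves out CERS4, which was at 14.6 CPM in cis and 29.7 CPM in cis SSP cells. PTDSS1 goes from 33.8% in wt carbo to 64.4% in cis cells. The widest bars are in cis SSP and cis SSP -SG cells, which hold libraries 25 and 32.

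Genes near each member were read from the same fits, as a description. Of 43 tested genes within 5 Mb of PTDSS1, 33 were higher and 10 lower in cis than in wt cells (78.5% of all genes passed), and their median on the log2 scale was 0.49 against 0.998 for PTDSS1. Between cis SSP and cis cells, 21 of 39 such genes were lower and none higher, with a median of -0.72 against -0.94 for PTDSS1, where 29.1% of all genes passed in either direction. Around SPTLC2, 27 of 66 genes were higher and 22 lower in cis cells, with a median of 0.03 against 1.13 for SPTLC2. Around SPTLC1, 29 of 45 genes were higher and 10 lower in cis cells, with a median of 0.35 against 0.29 for SPTLC1. Between cis SSP and cis cells 2 were higher and 6 lower there, with a median of -0.13 against -0.82 for SPTLC1. Around KDSR, 13 genes had a median of -0.35 between cis SSP and cis cells, all below 0, 4 of them lower by the test, against -0.41 for KDSR. In -SG medium the 14 neighbours of KDSR in cis cells had a median of 0.17 against 0.72 for KDSR, and the 43 neighbours of PTDSS1 had one of -0.16 against -0.51 for PTDSS1. The part of the neighbourhood in these values was not tested.

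Over the 12 condition means of log2 CPM, the genes most like PTDSS1 among 9515 were MTFR1, also on chromosome 8 (Pearson r = 0.98), PACC1 on chromosome 1 (r = 0.98) and LARP1B on chromosome 4 (r = 0.97). Those most like SPTLC2 were PAPPA (r = 0.99), UBASH3B (r = 0.98) and RRN3 (r = 0.98), on chromosomes 9, 11 and 16. The 12 means share lines and libraries, so these values describe likeness over these conditions.

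Other genes of sphingolipid and phospholipid metabolism, a list of 42, were read in the same comparisons. Between cis and wt cells 26 of 34 tested ones passed (76.5%, against 78.5% of all genes), 15 higher and 11 lower. SGMS2, a sphingomyelin synthase, rose from 8.61 CPM (wt) to 39.6 CPM (cis; log2 fold change 2.18, edgeR adjusted p = 2.47e-29), and ETNK2, an ethanolamine kinase, rose by 1.91 (adjusted p = 1.36e-16). UGCG, which makes glucosylceramide, fell from 169.6 CPM (wt) to 30.9 CPM (cis; -2.48, adjusted p = 4.65e-43), and PCYT1B, a choline phosphate cytidylyl transferase, was at 39.0 and 0.930 CPM (-5.38, adjusted p = 1.84e-36). Between cis SSP and cis cells 9 of 35 passed (25.7%, against 29.1% of all genes), 3 higher and 6 lower. Of the tested genes of the list, 20 passed without library 25 (65.4% of all genes), 4 without cis replicate 1 or 3 and 5 without cis SSP replicate 3. The number tested in these fits is not given. The acid sphingomyelinase gene SMPD1 (1.67, edgeR adjusted p = 0.00177) and the ceramide synthase gene CERS4 (0.998, adjusted p = 0.00396) were higher in cis SSP than in cis cells with all libraries. SGPL1 (-0.84, adjusted p = 0.0101), which cleaves sphingosine phosphate, and SGMS1 (-0.67, adjusted p = 0.00668) were lower. The values of these genes include library 25, whose deviations ran with transcript length, and none without it is given.

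In -SG medium 27 of 36 of these genes passed in cis cells, 16 higher and 11 lower, and 16 of 34 in wt cells, 9 higher and 7 lower. These are 75.0% and 47.1% of the list, against 75.0% and 49.2% of all genes. PCYT2, the ethanolamine phosphate cytidylyl transferase of phosphatidylethanolamine synthesis, fell in cis cells from 47.4 to 16.9 CPM (log2 fold change -1.43, edgeR adjusted p = 6.01e-26). Its response differed between cis and wt cells by -1.002 (adjusted p = 3.09e-14) and between cis SSP and cis cells by 1.07 (adjusted p = 0.0051). The last value includes libraries 25 and 32 (cis SSP -SG 28.9 ± 6.39 CPM, cis SSP 37.5 ± 4.13 CPM), and none without them is given. The ceramide transfer protein gene COL4A3BP responded more in cis than in wt cells, by 0.60 (adjusted p = 5.36e-10). With carboplatin in wt cells 30 of 34 passed, 17 higher and 13 lower, and 6 of 34 in cis cells, 3 higher and 3 lower. These are 88.2% and 17.6% of the list, against 77.8% and 20.1% of all genes. The sphingosine kinase gene SPHK1 rose in wt cells from 39.2 to 126 CPM (1.69, edgeR adjusted p = 4.5e-227) and in cis cells from 76.2 to 99.1 CPM (0.39, adjusted p = 2.23e-08). The ceramidase gene ACER2 rose by 1.79 in wt cells (adjusted p = 2.98e-44), and PCYT2 and PEMT fell by 1.49 and 1.40 on the log2 scale (adjusted p = 5.54e-113 and 2.81e-55). In cis SSP cells none of the 34, 35 and 33 tested genes of this list passed for -SG medium, carboplatin, and carboplatin in -SG medium. Of these, 2, 9 and 6 had an unadjusted p under 0.05. Without library 25, 20 passed with carboplatin in complete medium (41.2% of all genes). Without library 32, 16 passed with carboplatin in -SG medium (41.1% of all genes). How many of the list were tested in those fits is not given, so the counts cannot be set against these shares.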

How the data were processed

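RNA was measured by RNA-seq in 36 libraries. The authors deposited raw counts of reads per gene, made with STAR and HTSeq on GRCh37.p13 per the labels and the study's methods, and their processing notes also name DESeq and DESeq2. The strand setting of the counting is not given in the sources used here. The 3 rows that name no gene were left out, and reads without a feature were 4.21% to 17.9% of a library, at most 9.31% without libraries 23 and 24. Symbols and positions came from GENCODE v44 mapped to GRCh37 (55538 of 57820 genes given a symbol).

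Counts were compared with edgeR 4.0.16 in R 4.3.3 (filterByExpr, TMM, robust quasi-likelihood fits and tests, Benjamini-Hochberg adjustment over all genes tested, threshold 0.05), in the libraries of each comparison alone, with an interaction term for differences between responses. Depth was 13074937 to 20441582 counts per library. Replicate pairs differed by more than sampling noise (chi-square per degree of freedom of 1.22 to 138 over 36 pairs), so none were merged. Levels per kb used the canonical transcript length, and those per kb of all annotated exons are also given. The 5 members with the widest range are given library by library. Other pathway genes were named as those with the largest called changes in each direction at a mean of at least 1 CPM. Genes like a member were sought among those at 10 CPM or more.

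Alternatives were DESeq2 1.42.0, edgeR with DESeq2's size factors or with plain library totals, all genes kept, at least 10 counts in every library, each library left out, libraries 25 and 32 or 23 and 24 left out, and 1 fit over the 36 libraries. A sign change of a member that passed in neither fit was not counted as a reversal. The cis/wt and cis SSP/cis fits were also run on simulated counts, with 1 common dispersion for all genes and no library that stands apart. That simulation does not cover the effect of library 25. Tables and figures were made with Python 3.11.15, pandas 2.3.3 and matplotlib 3.10.9. The members and lists were chosen with earlier results of these data known.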

Additional observations from a re-analysis of the deposited data

Results flagged for a closer look

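The following differences between responses passed the interaction test of edgeR, and they are given as log2 values without explanation. The carboplatin response in complete medium was smaller or more negative in cis than in wt cells for SPTLC1 (-0.23), SPTLC2 (-0.54), CERS2 (-0.40), CERS5 (-0.44) and PTDSS2 (-0.59). It was higher in cis than in wt cells for SPTSSA (0.45), KDSR (0.15) and PTDSS1 (0.24). The response to serine/glycine deprivation was higher in cis than in wt cells for KDSR (0.47), CERS5 (0.28) and DEGS1 (0.11), and lower for CERS2 (-0.092) and PTDSS1 (-0.47). Between cis SSP and cis cells it was higher in cis SSP cells for SPTSSA (0.61) and PTDSS1 (0.61). Those of KDSR with carboplatin and of CERS2 and DEGS1 with deprivation were lost when single libraries were left out, as given with those results.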

How the results depend on the processing

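Counts of the 10 members called moved with the fit and with libraries left out, and the cause was not tested. With 1 fit over the 36 libraries they were 5 for cis against wt, 6 for cis SSP against cis, 0 for carboplatin in cis and in cis -SG, 4 for carboplatin in cis SSP, 2 for deprivation in wt, 4 for deprivation in cis, 1 for deprivation in cis SSP, and 2 for the deprivation response of cis minus wt cells. By DESeq2 they were 1 for carboplatin in cis SSP, for deprivation in cis SSP and for carboplatin in cis -SG. With at least 10 counts in every library 1 passed for carboplatin in cis SSP, with total counts 1 for carboplatin in cis -SG, and without a filter 1 for the deprivation response of cis SSP minus cis cells. Without libraries 25 and 32, 5 passed for deprivation in cis SSP and 5 for the response of cis SSP minus cis, and without libraries 23 and 24, 1 passed for carboplatin in cis -SG. With each library left out in turn, counts ran from 2 to 9 for cis SSP against cis, 0 to 7 for carboplatin in cis SSP, 1 to 4 in cis -SG, 0 to 6 in cis SSP -SG and 3 to 5 for the deprivation response of cis minus wt. Of 1020 values of single members with a library left out, 946 kept their call or their lack of one. These include values that changed sign but passed in neither fit, such as CERS6 with deprivation in cis SSP (-0.38 to 0.38). The 1 value counted as reversed was PTDSS2 with carboplatin in cis SSP -SG. It was at 0.23 (edgeR adjusted p = 0.000769) without library 32, and the values without each library ran from -0.20 to 0.23. Total counts moved the median of all genes from 0.00296 to -0.11 for the deprivation response of cis SSP minus cis. No paired analysis was possible because the labels give no replicate numbers that are shared between conditions.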
